A study of Mus musculus with 6 samples.

Results

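Neurons and glia share most of their genes but splice them differently, and much of that difference is set by a small number of RNA-binding proteins. PTBP1 holds neuronal exons out of the mRNAs of progenitors and glia and gives way to its close relative PTBP2 as neurons form, while the RBFOX, NOVA, ELAVL (Hu) and CELF proteins direct splicing, and in part mRNA stability and translation, in neurons. QKI, the product of Qk, is the counterpart in oligodendrocytes, where it binds myelin mRNAs and is needed for myelination. The 10 genes described here are Qk, Ptbp1, Ptbp2, Rbfox1, Rbfox3, Nova1, Nova2, Elavl3, Elavl4 and Celf4. They were taken by gene symbol from a table of 55492 genes, and all 10 had a row.

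The RNA came from whole brains of 3 wild type (WT) and 3 Npc1-/- mice at postnatal day 16 (P16). Npc1-/- mice are homozygous for the Npc1nih allele, a null allele that acts in all cells of the body, of the gene for the lysosomal cholesterol transporter mutated in Niemann-Pick type C disease. Per the methods, Npc1-/- mice were first-generation hybrids of carriers on BALB/cJ and C57BL6/J, and littermates were genotyped, and the labels give no treatment for any sample. Cells carrying O4, a surface lipid antigen of late oligodendrocyte progenitor cells (OPCs) and immature oligodendrocytes, were pulled from the dissociated brain on magnetic beads, and a poly(A) RNA library was made for each sample. Expression was deposited in TPM, transcript abundance per unit of transcript length scaled to the same total in every library. Here TPM was divided by a size factor per library, and the result is called scaled TPM. Depth, read from the steps between low values, was between 41500000 and 50250000 fragments per library.

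Npc1 checked the genotypes. Its scaled TPM was 41.1, 45.5 and 43.9 in the 3 WT libraries and 3.72, 5.17 and 4.35 in the Npc1-/- libraries, with a log2 fold change of -3.17 (SE 0.12, adjusted p = 0.000398, limma). The sorted cells carried the lineage factor Sox10 at 154 to 200 and the myelin gene Mog at 310 to 529, and the progenitor gene Pdgfra at 12.7 to 25.4. Npc1-/- replicate 3 was the only library with Xist above 0.01, at 21.4, and so the only one from a female by this gene. Markers of other cells moved with genotype. The summed level of 12 pan-neuronal genes ranged from 354 to 378 in WT and from 449 to 486 in Npc1-/-. Of the 12, 11 were above 0 in log2 fold change, and Map2 was below (-0.31, groups apart). Only 3 of them, Nefl, Nefm and Nefh, were higher in Npc1-/- with groups apart. The summed level of 5 Purkinje cell genes, most of it Pcp2, ranged from 220 to 255 in WT and from 621 to 737 in Npc1-/-. Of these, 4 of 5 were above 0 and Itpr1 was below (log2 fold change -0.72, groups apart). The 5 microglial and 4 endothelial genes were all lower in Npc1-/- with no overlap between groups. In RNA from a mixture of cells, fewer cells of a type and less RNA per cell cannot be told apart.

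The first question was how much of each regulator the sorted cells held. Qk stood far above the others, with scaled TPM of 261, 328 and 333 in WT and 299, 295 and 379 in Npc1-/-. In every library it ranked between 217 and 286 among all genes. Elavl3, which encodes the neuronal Hu protein HuC, came next, with 94.8, 112 and 109 in WT and 115, 117 and 129 in Npc1-/-. It was above Ptbp1 in 6 of 6 libraries by a median ratio of 3.06, and above its neuronal relative Elavl4 (HuD) by a mean factor of 36.7 in WT and 29.7 in Npc1-/-. Of 12 pan-neuronal markers, 11 were below Elavl3 in each library, Tubb3 among them at 23.9 to 57.1, while Uchl1, at 109 to 159, was above Elavl3 in 5 of 6. Ptbp1 lay above Ptbp2 in 6 of 6 libraries by a median ratio of 1.52. Ptbp2 exceeded Celf4 in 5 of 6 libraries, and Celf4 exceeded Rbfox3, the gene of the nuclear antigen NeuN, in 6 of 6.

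The lower part of the order was less clear. Nova1, Nova2 and Elavl4 changed places between libraries: Nova1 was above Nova2 in 4 of 6 libraries and Nova2 above Elavl4 in 3 of 6. Rbfox1 had the lowest median rank but was above Elavl4 in 2 of 6. Its values of 1.92, 2.29 and 2.89 in WT and 1.94, 2.33 and 3.07 in Npc1-/- rested on at least 64.6 fragments per kilobase of transcript, and those of Qk on at least 8511. The number of fragments behind a whole gene also depends on its transcript length, which differs between these genes.

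**Figure D1:**
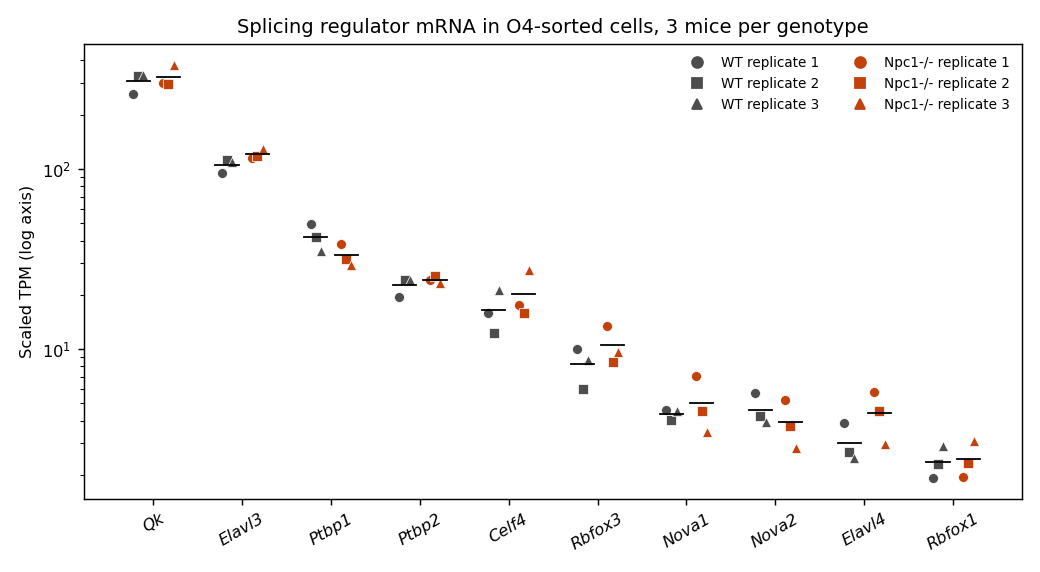
Scaled TPM (log axis) of the 10 splicing regulators in the 3 WT (grey) and 3 Npc1-/- (orange) libraries, with marker shape for the replicate and a black line for each group mean. Qk lies above Elavl3 in all 6 libraries, and the points of the 2 genotypes overlap for every gene but Elavl3.

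The second question was whether any of these mRNAs differed between genotypes. No member passed the threshold (adjusted p under 0.05 over 15245 genes, with a log2 fold change of 0.1 or more in either direction, limma), and 0 of 10 had an unadjusted p under 0.05. Over all genes tested, 124 (0.813%) passed the threshold, 61 (0.4%) higher and 63 (0.413%) lower in Npc1-/-, and 22.2% had an unadjusted p under 0.05. DESeq2 and edgeR were not run, since the values are not counts. The groups did not overlap for 1 of 10 members, Elavl3, against 27.5% of all genes. The log2 fold change was above 0 for 8 members and below 0 for 2, with a median of 0.12, against 0.01 over all genes tested. With unscaled TPM the median of all genes was -0.33, and 7 of the 8 (all but Elavl4) were then below 0 but above that median. With 3 mice a group, the intervals below still leave room for moderate changes.

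**Figure D2:**
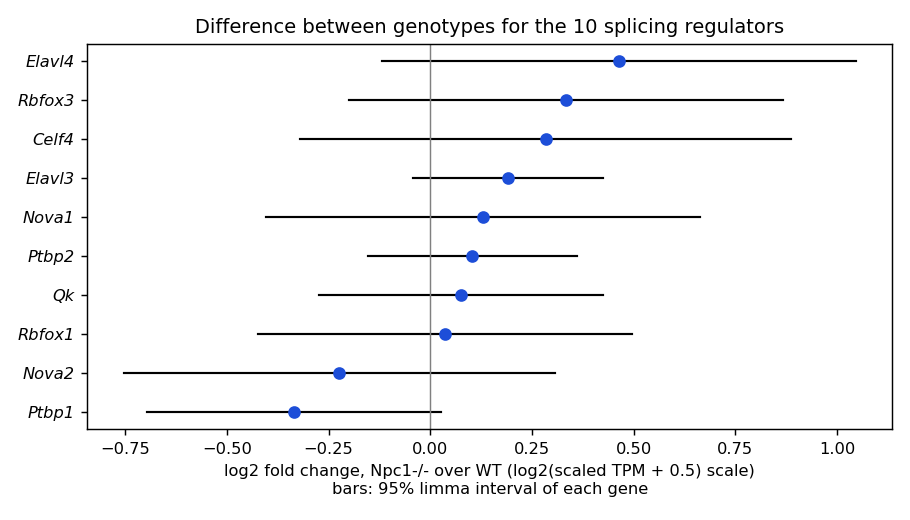
Log2 fold change of each regulator, Npc1-/- over WT, on the log2(scaled TPM + 0.5) scale (points) with its 95% limma interval (bars). All 10 intervals include 0, and they are widest for Elavl4 and Celf4.

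Ptbp1 and Ptbp2 encode the paralogous repressors. Ptbp1 (chr10:79854427-79864771, GRCm38, plus strand) had scaled TPM of 49.5, 41.9 and 34.9 in WT and 38.4, 31.7 and 29.4 in Npc1-/-, or 42.1 ± 7.28 and 33.2 ± 4.65 (SD, n = 3). The lowest values were in Npc1-/- replicates 2 and 3, and Npc1-/- replicate 1 lay within the range of WT. The log2 fold change was -0.34 (95% interval -0.70 to 0.03, adjusted p = 0.255, limma), the lowest among the members. A change at least as large in either direction was found in 28.4% of all genes tested. With replicate number added to the fit as a block, Ptbp1 was called (adjusted p = 0.0382, limma), as were 2011 of 15245 genes. Plppr3 overlaps Ptbp1 on the opposite strand and was at 2.31 to 7.75, and use of strand in counting is not given in the sources used here. Ptbp1 is also found in microglia and endothelium, whose markers were lower in Npc1-/-, and their part in its values was not tested.

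Ptbp2 (chr3:119718742-119784466, minus strand) was at 19.6, 24.3 and 24.0 in WT and at 24.1, 25.6 and 23.1 in Npc1-/-. WT replicate 1 was the lowest of the 6, and the others ran from 23.1 to 25.6. The log2 fold change was 0.10 (95% interval -0.15 to 0.36, adjusted p = 0.640, limma). The relative Ptbp3, at 8.27, 7.97 and 7.23 in WT and 6.04, 6.01 and 6.74 in Npc1-/-, did not pass the threshold (log2 fold change -0.30, adjusted p = 0.1503, limma), and is named after its values were seen, as the only tested gene among 20 relatives of the regulators whose groups did not overlap.

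The balance of both paralogues does not depend on the scaling of the libraries. The ratio of Ptbp2 to Ptbp1 was 0.395, 0.580 and 0.688 in WT and 0.628, 0.808 and 0.785 in Npc1-/-, or 0.554 ± 0.148 and 0.740 ± 0.098 (SD, n = 3). Npc1-/- replicates 2 and 3 were above all WT libraries, while Npc1-/- replicate 1 fell between WT replicates 2 and 3. The mean difference was 0.45 on the log2 scale, with p = 0.2 in a two-sided exact permutation test, for which 0.1 is the smallest p that 3 against 3 can give. Over 5 ratios tested the adjusted p was 0.333 (exact permutation test, Benjamini-Hochberg).

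**Figure D3:**
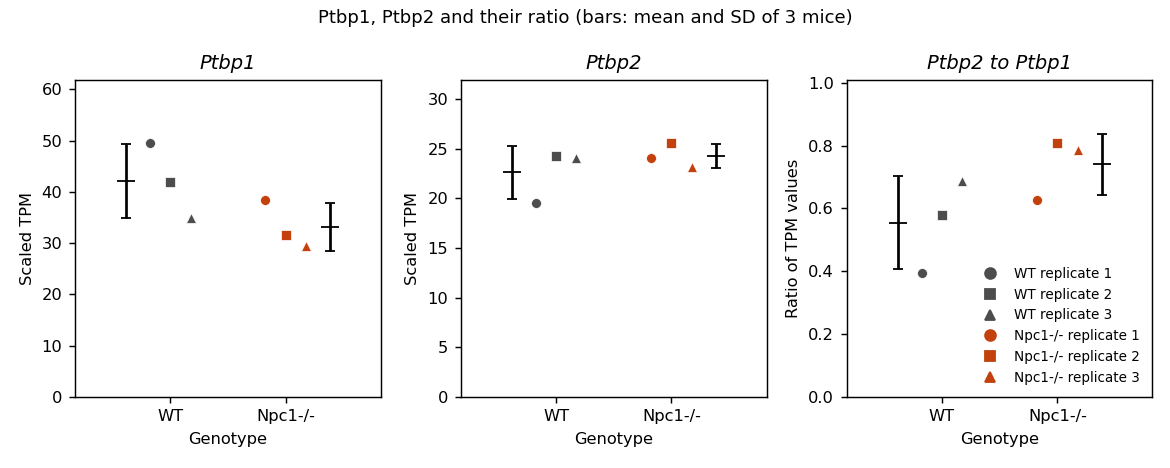
Scaled TPM of Ptbp1 and Ptbp2 and the ratio of Ptbp2 to Ptbp1 in each library (points), with the mean and SD of 3 mice per genotype (bars). Npc1-/- replicate 1 lies inside the WT range in the Ptbp1 and the ratio panel.

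Both genes hold a 34-base exon, shown because its use decides whether the mRNA makes protein. PTBP1 favours skipping of this exon in Ptbp2 pre-mRNA, which shifts the reading frame and sends the mRNA to nonsense-mediated decay. In GENCODE M21 (GRCm38) it is exon 10 of 14 in the longest coding Ptbp2 transcript that holds it (chr3:119724612-119724645, minus strand) and exon 9 of 13 in that of Ptbp1 (chr10:79862014-79862047, plus strand). The exon is in capitals, with 20 bases of the exons on either side in the spliced mRNA in lower case.
Ptbp2: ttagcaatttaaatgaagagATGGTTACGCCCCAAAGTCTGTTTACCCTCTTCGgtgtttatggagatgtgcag
Ptbp1: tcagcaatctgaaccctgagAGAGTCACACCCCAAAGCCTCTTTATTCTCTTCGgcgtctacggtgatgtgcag
The 2 exons share 26 of 34 bases (76.5%). Among 13 annotated Ptbp2 transcripts, 3 hold the exon and 1 joins its neighbours without it, and among 16 of Ptbp1, 4 hold it and 2 join its neighbours. All 3 transcripts that skip it are annotated as subject to nonsense-mediated decay. The deposited values are 1 per gene, so the 2 forms of Ptbp2 or Ptbp1 could not be measured apart.

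Qk (chr17:10202601-10319854, minus strand), the regulator of the oligodendrocyte lineage, showed no difference beyond the spread between mice. Its scaled TPM was 308 ± 40.4 in WT and 324 ± 47.3 in Npc1-/- (SD, n = 3), and the 3 Npc1-/- values lay on both sides of WT replicates 2 and 3. The log2 fold change of 0.07 had a 95% interval of -0.27 to 0.42 (adjusted p = 0.820, limma), and its sign turned when quantile normalization or the unscaled TPM was used. Sox10, in the same lineage, had a log2 fold change of 0.02 (SE 0.12, adjusted p = 0.937, limma). Gene-level values do not separate the QKI-5, QKI-6 and QKI-7 isoforms, which differ in whether they stay in the nucleus.

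None of 7 mRNAs known as targets of QKI passed the threshold, and 6 of them had a log2 fold change above 0, with a median of 0.23. Mbp, the myelin basic protein mRNA, had the largest, with 145087, 200316 and 201807 scaled TPM in WT and 183641, 289011 and 359525 in Npc1-/- (log2 fold change 0.57, SE 0.89, adjusted p = 0.765, limma). The groups overlapped, since Npc1-/- replicate 1 was below WT replicates 2 and 3. Sirt2, a deacetylase abundant in myelin, had the smallest, with 2329, 3036 and 2928 in WT and 2212, 2198 and 2416 in Npc1-/- (log2 fold change -0.27, adjusted p = 0.408, limma). The groups did not overlap for 2 of 7, Mag and Hnrnpa1, near the 27.5% of all genes, and both are named after their values were seen. Mag, a myelin adhesion protein, was at 1187, 1146 and 1079 in WT and 1670, 1510 and 1387 in Npc1-/- (log2 fold change 0.42, adjusted p = 0.131, limma).

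QKI binds the hexamers ACTAAC and ACTAAT (written as DNA) in RNA. On the sense strand, at least 1 of them lay in the longest annotated 3′ UTR of 4 of the 7 targets, and in 32.0% of 21020 coding genes. Windows around the first hexamer are shown for 3 of the 4 to place the motif in targets measured here, with the hexamer in capitals.
Cdkn1b: gttcagaagtACTAATgctcccacag
Hnrnpa1: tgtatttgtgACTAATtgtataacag
Sirt2: aaacaaagcaACTAAC
They lie at chr6:134922868-134922893, chr15:103244419-103244444 and chr7:28788646-28788661 (GRCm38), all on the plus strand, and that of Sirt2 ends with the transcript. The 3′ UTRs differ in length, and among genes with 3′ UTRs of similar length the share with a hexamer was 66.6% for Cdkn1b, 19.7% for Hnrnpa1 and 17.3% for Sirt2. Mbp, whose window is not shown, holds 2 hexamers, and the share among genes with 3′ UTRs of similar length was 70.3%. The 3 mRNAs shown had log2 fold changes of 0.10, 0.23 and -0.27, and Mbp had 0.57. Targets with the hexamer thus lay on both sides of 0, and none passed the threshold.

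The neuronal Hu genes both had log2 fold changes above 0. Elavl3 (chr9:22015005-22052023, minus strand) was at 105 ± 9.16 in WT and 120 ± 7.33 in Npc1-/- (SD, n = 3), and its lowest Npc1-/- value, 115, stood just above its highest WT value, 112. The log2 fold change was 0.19 (95% interval -0.04 to 0.43, adjusted p = 0.313, limma), with p = 0.1 in the two-sided exact permutation test, the smallest possible. Among all genes tested, 13.3% were higher in Npc1-/- without overlap. The Elavl3 groups overlapped after quantile normalization and with unscaled TPM, which put its log2 fold change at -0.18. The summed pan-neuronal markers were higher in the same libraries, and as a percentage of that sum Elavl3 was 25.1, 31.6 and 30.7 in WT and 23.6, 26.1 and 26.9 in Npc1-/-, so that the groups overlapped. The same division set the groups of Ptbp1 and Nova2 apart, both lower in Npc1-/-, while those of the other members overlapped. These percentages were computed after the values were seen, and the part of neuronal cells in them was not tested.

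Elavl4 (chr4:110203722-110351909, minus strand) had the largest log2 fold change among the members with all libraries included. Its scaled TPM was 3.90, 2.68 and 2.48 in WT and 5.75, 4.54 and 2.97 in Npc1-/-, for a log2 fold change of 0.46 (95% interval -0.12 to 1.05, adjusted p = 0.327, limma). Npc1-/- replicates 1 and 2 were above all WT values, and Npc1-/- replicate 3 lay between those of WT. Leaving out 1 library gave 0.27 (without Npc1-/- replicate 1) to 0.70 (without Npc1-/- replicate 3), and Celf4 or Rbfox3 was higher than Elavl4 without WT replicate 3, Npc1-/- replicate 1 or Npc1-/- replicate 2. Of the other Hu genes, Elavl2, also neuronal, had a log2 fold change of 0.44 (SE 0.43, adjusted p = 0.615, limma), the largest among the relatives, and its values ran from 1.28 to 3.31 in WT and from 1.40 to 5.05 in Npc1-/-. Elavl1 (HuR), made in all cells, was at 26.3, 21.1 and 20.3 in WT and 21.1, 17.6 and 16.8 in Npc1-/- (log2 fold change -0.28, adjusted p = 0.286, limma).

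The RBFOX proteins bind GCATG in introns and turn neuronal exons on or off by position. Rbfox3 (chr11:118489762-118911597, minus strand) was at 10.1, 6.01 and 8.64 in WT and at 13.5, 8.42 and 9.58 in Npc1-/- (log2 fold change 0.33, 95% interval -0.20 to 0.87, adjusted p = 0.446, limma). Each genotype had its highest value in replicate 1 and its lowest in replicate 2, and the log2 fold change was 0.13 without WT replicate 2 and 0.48 without WT replicate 1. Rbfox1 (chr16:5885355-7411526, plus strand), the longest gene of the set, had a log2 fold change of 0.04 (95% interval -0.42 to 0.50, adjusted p = 0.939, limma). Rbfox2, the broadly expressed relative, had the smallest log2 fold change among the 20 relatives tested, with 11.8, 8.41 and 9.05 in WT and 9.07, 6.18 and 7.54 in Npc1-/- (log2 fold change -0.34, adjusted p = 0.308, limma).

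Within the RBFOX family the ratio of Rbfox2 to Rbfox3 separated the genotypes. It was 1.17, 1.40 and 1.05 in WT and 0.673, 0.733 and 0.787 in Npc1-/-, so that Rbfox2 was the more abundant in every WT library and Rbfox3 in every Npc1-/- library. The log2 difference was -0.72, with p = 0.1 in the exact permutation test, the smallest possible, and 0.25 after adjustment over 5 ratios (exact permutation test). This ratio and the other 3 besides Ptbp2 to Ptbp1 were chosen after values were seen. The ratio of Rbfox3 to Rbfox1 ran from 2.63 to 5.23 in WT and from 3.12 to 6.94 in Npc1-/- and overlapped.

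NOVA1 and NOVA2 are KH domain proteins of neurons that regulate exons of synaptic genes. Nova1 (chr12:46694517-46818929, minus strand) was at 4.59, 4.04 and 4.52 in WT and at 7.06, 4.54 and 3.48 in Npc1-/-. The Npc1-/- libraries held both its highest and its lowest value (log2 fold change 0.13, 95% interval -0.40 to 0.66, adjusted p = 0.793, limma), and without Npc1-/- replicate 1 the log2 fold change was -0.12. Nova2 (chr7:18925888-18965319, plus strand) was at 5.68, 4.22 and 3.91 in WT and at 5.22, 3.76 and 2.82 in Npc1-/-, a log2 fold change of -0.22 (95% interval -0.75 to 0.31, adjusted p = 0.620, limma), which was -0.037 without Npc1-/- replicate 3 and -0.42 without Npc1-/- replicate 1. The ratio of Nova1 to Nova2 was 0.808, 0.957 and 1.16 in WT and 1.35, 1.21 and 1.23 in Npc1-/-. Its groups did not overlap, with a log2 difference of 0.39, p = 0.1 in the exact permutation test and 0.25 after adjustment over the 5 ratios.

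Celf4, a CELF protein of excitatory neurons that binds many synaptic mRNAs, lies on chromosome 18 at 13.24 Mb from Npc1. It was at 15.8, 12.3 and 21.3 in WT and at 17.5, 15.8 and 27.6 in Npc1-/- (log2 fold change 0.28, 95% interval -0.32 to 0.89, adjusted p = 0.575, limma). Replicate 3 was the highest in either genotype, and the log2 fold change was 0.042 without Npc1-/- replicate 3 and 0.48 without WT replicate 3. The part of strain sequence linked to the Npc1 allele was not tested.

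A list of 8 mRNAs whose splicing or stability neuronal members regulate was also followed, as totals per gene, and none passed the threshold. Their median log2 fold change was 0.00, with 4 above 0 and 4 below. Gap43, a growth cone protein whose mRNA is stabilised by HuD, had the largest, with 31.6, 22.5 and 28.4 in WT and 46.3, 36.9 and 37.2 in Npc1-/- (log2 fold change 0.54, SE 0.15, adjusted p = 0.0970, limma). Of the 8, the groups did not overlap for 1 higher in Npc1-/- (Gap43) and 2 lower (Dab1 and Agrn), against 27.5% of all genes. A link between Gap43 and Elavl4 was not tested. Dab1, an adaptor of reelin signalling with exons under NOVA2 control, had the smallest, with 28.8, 29.6 and 37.9 in WT and 26.9, 22.2 and 23.4 in Npc1-/- (log2 fold change -0.39, adjusted p = 0.142, limma). Agrn, with neuronal exons under NOVA control, also lay below the WT range, at 65.9, 60.6 and 56.2 in WT and 43.5, 51.8 and 47.1 in Npc1-/- (log2 fold change -0.36, adjusted p = 0.102, limma), and is named after its values were seen. It is also made by endothelial cells, whose 4 markers were lower in Npc1-/-, and their part was not tested.

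The general splicing machinery gave no called gene either. Of 23 hnRNP genes 14 had a log2 fold change above 0, with a median of 0.02, from -0.07 for Hnrnpul1 (adjusted p = 0.675, limma) to 0.44 for Hnrnph3 (adjusted p = 0.253, limma). Of 13 genes of SR proteins, 9 were above 0, with a median of 0.05, from -0.13 for Srsf10 to 0.29 for the neural Srsf12. Of 19 core spliceosome genes 13 were above 0, with a median of 0.06, from -0.18 for Prpf8 to 0.42 for Snrpe. The summed level of these 19 ranged from 1028 to 1111 in WT and from 1154 to 1206 in Npc1-/-, without overlap. Taken singly, 3 of the 19 were higher and 1 was lower without overlap, against 27.5% of all genes. The sums of the hnRNP and SR lists overlapped. Snrpe, a protein of the Sm ring, was at 40.8, 41.5 and 38.6 in WT and at 53.8, 57.8 and 50.9 in Npc1-/- (SE 0.08, adjusted p = 0.0584, limma) and came nearest to the threshold of all splicing genes examined. The medians of these 3 lists differed from that of all genes by less than 0.1.

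**Figure D4:**
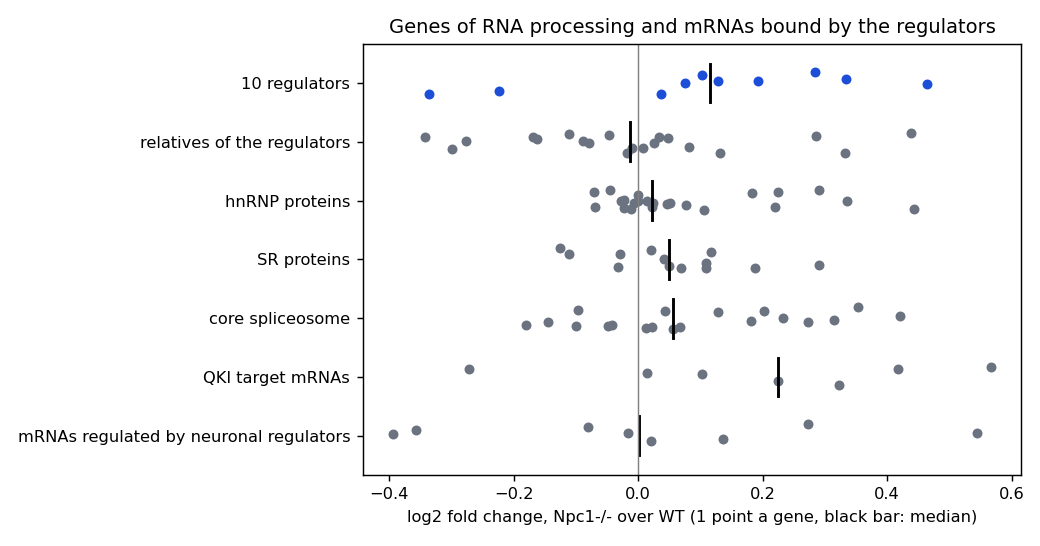
Log2 fold change, Npc1-/- over WT, of each tested gene (points) in the 10 regulators, their relatives, general splicing factors and mRNAs the regulators bind, with the median of each list (black bar). No gene shown passed the threshold, and the extremes are Mbp at 0.57 and Dab1 at -0.39.

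For Qk, Ptbp2, Celf4, Rbfox1, Rbfox3, Nova1 and Nova2 the genotype means differed by less than the larger SD. The highest libraries of all of these but Qk and Ptbp2 are set here beside the summed markers of a neuronal class. Both the genes and the class shown for each were chosen after their values were seen. Celf4 and Rbfox1 were highest in WT replicate 3 and Npc1-/- replicate 3, the 2 libraries in which the summed level of 4 cortical projection neuron markers was 99.9 and 99.5. In the other libraries that sum ran from 46.3 to 64.1. Rbfox3, Nova1 and Nova2 were highest in WT replicate 1 and Npc1-/- replicate 1, where 7 cerebellar granule neuron markers summed to 125 and 133, against 48.9 to 76.8 in the other libraries. In the libraries where Celf4 was highest, the granule sum was 55.4 and 48.9. Nor did all markers of a class move together. The granule markers Gabra6 (0.34 to 1.03) and Cbln3 (0.58 to 1.53) were highest in WT replicate 3 and Npc1-/- replicate 3, the reverse of their sum, and the projection neuron sum was mostly Camk2a and Slc17a7 (9.83 to 22.0), while Neurod6 was lowest in WT replicate 3. Neither sum separated the genotypes, and these values describe 6 libraries, with no test.

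**Figure D5:**
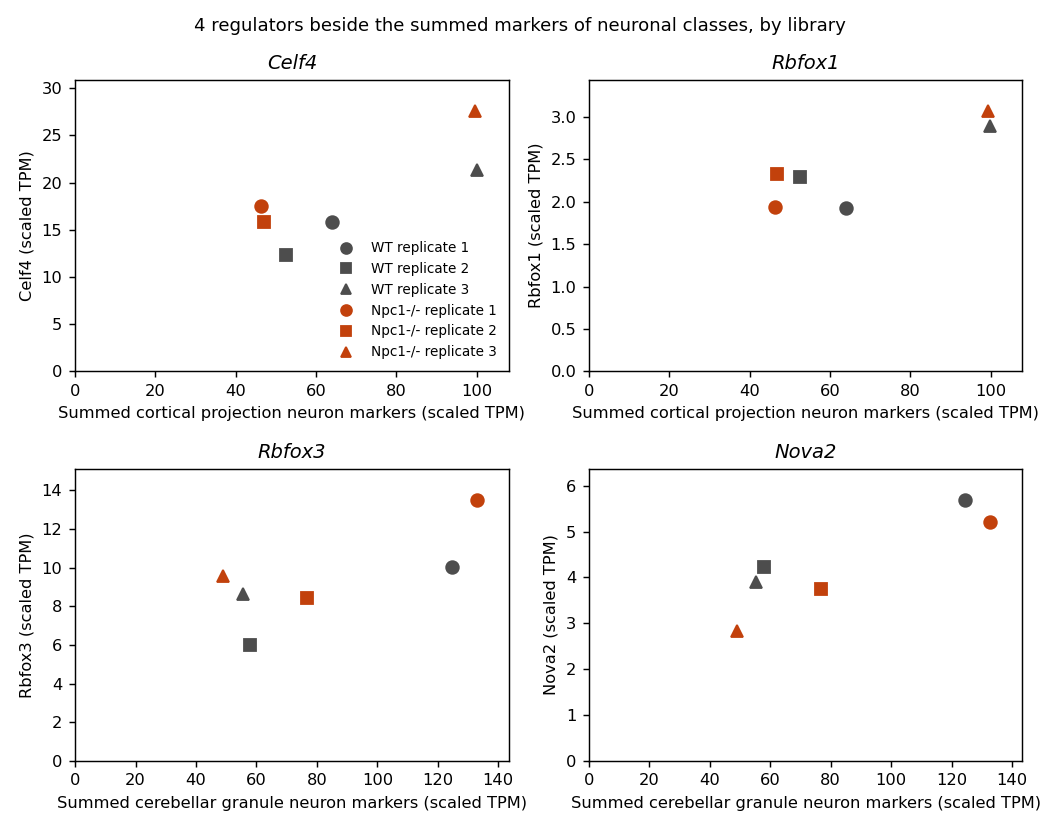
Scaled TPM of Celf4, Rbfox1, Rbfox3 and Nova2 (vertical axes) against the summed scaled TPM of markers of cortical projection neurons or cerebellar granule neurons (horizontal axes), 1 point a library. The 2 libraries with the highest marker sum in a panel, 1 of each genotype, are also the 2 highest for the regulator, for pairs chosen after the values were seen.

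Other marker genes stood as follows beside the members. The Purkinje gene Pcp2, at 164 to 193 in WT and 511 to 614 in Npc1-/-, had a log2 fold change of 1.602 (adjusted p = 0.00674, limma), and Car8 and Pvalb rose as well (1.24 and 1.62, adjusted p = 0.0133 and 0.00255, limma). Itpr1, of the same list, was at 21.2 to 26.4 in WT and 9.93 to 17.6 in Npc1-/- (log2 fold change -0.72, adjusted p = 0.105, limma). The neurofilament genes Nefl and Nefm rose by 1.22 and 1.11 (adjusted p = 0.0185 and 0.0134, limma), while Tubb3 did not pass the threshold (0.44, adjusted p = 0.456). No member had a log2 fold change as large as those of Nefl and Nefm. The inhibitory neuron gene Gad1 was at 1.86 to 4.03 and did not separate the genotypes. The microglial gene Tmem119 fell by 1.44 (adjusted p = 0.0442, limma), and Cx3cr1 and the endothelial gene Cldn5 had log2 fold changes of -1.15 and -0.54 (adjusted p = 0.0733 and 0.138, limma). Of 5 astrocyte genes 4 were below 0, among them Aqp4 at -0.42 (adjusted p = 0.225, limma), and Gfap was at 1.01 with its groups apart (adjusted p = 0.108, limma). Of 3 committed oligodendrocyte genes, Gpr17 was at -0.22 and Bcas1 at 0.74 (adjusted p = 0.683 and 0.257, limma). Map2, Nefh, Itpr1, Gfap, Bcas1, Uchl1, Cbln3, Camk2a and Neurod6 were named after their values were seen. Their part in the members' values was not tested.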

How the data were processed

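Poly(A) RNA of O4-selected cells was measured in 3 WT and 3 Npc1-/- libraries. The authors deposited TPM and FPKM per gene with 2 decimals. The submitters' processing notes name cutadapt 2.3, FastQC 0.11.8, STAR 2.7.8a, RSEM 1.3.3 and MultiQC 1.7, and the methods another chain (bbduk, STAR, featureCounts). Which made the tables, and whether strand was used, is not given in the sources used here. Groups and replicate numbers came from the sample labels.

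TPM was divided by median-of-ratios size factors (18690 genes above 0 in every library), which were between 0.727 and 1.30. The 15245 genes that averaged 0.5 TPM or more were fitted on log2(scaled TPM + 0.5) with limma 3.58.1 in R 4.3.3 (eBayes with trend), and p-values were adjusted by Benjamini-Hochberg over all of them. Log2 fold changes are on that scale and understate changes of low genes. A gene was called at an adjusted p under 0.05 if its log2 fold change was 0.1 or more in size. On simulated data for these 15245 genes, 162 of 200 changes of 1.5 (log2) were found, with 9 false calls. Changes of the size seen in the members, at most 0.46, were not simulated, and simulated libraries varied independently of each other. P-values measure the spread between these mice.

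Whole fragments could be read only where a gene has 1 transcript, and no count test was run. Depth came from FPKM steps of genes with a single transcript, where 82.8% to 87.1% of values lay within 0.15 of a whole number against 30% by chance. Intervals and fragment numbers cover no other error. Positions and transcripts came from GENCODE M21 (55227 of 55492 identifiers found).

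The members and lists were chosen with earlier results of these data known. The text names all members, the called and the extreme genes of each list, and the first gene of each marker list. Alternatives were FPKM, unscaled TPM, quantile normalization, a pseudocount of 0.1 or 1, a filter at 5 TPM or none, robust or untrended limma, replicate numbers as a block, each library left out, and, chosen after seeing the data, a transcript length curve removed. Python 3.11.15 with numpy 2.4.6, pandas 2.3.3 and matplotlib 3.10.9 was used.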

Additional observations from a re-analysis of the deposited data

How the results depend on the processing

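No member was called under any alternative but the replicate block, and over 166 refits of single members 152 kept their direction and call, 13 turned direction and 1 gained a call. Unscaled TPM moved the median of all genes to -0.33. It turned Qk to -0.30, Ptbp2 to -0.26, Rbfox1 to -0.27, Rbfox3 to -0.018, Nova1 to -0.20, Elavl3 to -0.18 and Celf4 to -0.079, all above that median. Quantile normalization turned Qk to -0.16. Leaving out 1 library gave Qk -0.046 to 0.14 and Rbfox1 -0.12 to 0.16, below 0 without WT replicate 1 or Npc1-/- replicate 3, and Nova1 -0.12 to 0.34, below 0 without Npc1-/- replicate 1. Without turning, Celf4 ran from 0.042 to 0.48, Rbfox3 from 0.13 to 0.48, Elavl4 from 0.27 to 0.70, Ptbp2 from 0.0033 to 0.15, Elavl3 from 0.12 to 0.23, Nova2 from -0.42 to -0.037 and Ptbp1 from -0.46 to -0.21. The cause was not tested. With a replicate block, 2011 of 15245 genes and 1 of 10 members were called, Ptbp1 (adjusted p = 0.0382, limma). Deviations of same-numbered libraries correlated at 0.41, 0.06 and 0.33, all above 0. The labels do not say that equal numbers mark pairs, so the main fit had no block. The count of 0 members called depends on that choice.

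Members without overlap numbered 2 with unscaled TPM (Qk and Rbfox1, both lower), 0 with quantile normalization, and 1 to 3 without 1 library. The share of all genes without overlap was computed only for the main setting (27.5%). Groups also part more easily with 1 library fewer, so these counts are not a result about the members. The log2 ratio of Ptbp2 to Ptbp1 was 0.22 to 0.62 without 1 library and stayed above 0. All genes called numbered 924 with unscaled TPM (54 higher, 870 lower), 225 with quantile normalization (92 higher, 133 lower), 21 with no filter, 447 at a mean TPM of at least 5, 42 without trend, and 20, 13 and 8 without WT replicate 1, 2 or 3 and 19, 5 and 477 without Npc1-/- replicate 1, 2 or 3.

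With 3 mice a group, no exact permutation p can fall below 0.1. Rbfox1 had the fewest fragments per kilobase, 64.6 in its lowest library.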
